A study of Mus musculus with 2 samples.

Results

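The growth hormone and insulin-like growth factor axis was followed through 10 genes in spatial transcriptomics (ST) data of mouse liver. The genes were taken by symbol and are Ghr, Stat5b, Socs2, Cish, Igf1, Igfals, Igfbp1, Igfbp2, Igfbp4 and Bcl6, which are 10 of the 32285 genes in the tables and of the 18712 with at least 1 count. The ST assay was 10x Visium, where a frozen section lies on a slide of barcoded spots and each captured transcript is counted through its unique molecular identifier (UMI). One section, 10 µm thick, came from 1 mouse fed a normal chow diet (NCD), and the other from 1 mouse fed a 60% high-fat diet (HFD). Both were male C57BL/6J mice bought at 5 weeks of age, drawn at random from their groups, and both received distilled water by mouth once a day over the last 8 weeks. These followed 14 weeks in which the HFD mouse was fed the high-fat diet and the NCD mouse was not. Neither mouse is labelled with an altered allele, a transgene or a drug. With 1 animal for each diet, the diet cannot be told apart from the animal, the section or the slide, no test was possible, and the 95% intervals in parentheses cover counting error only.

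In the liver, growth hormone (GH) binds its receptor and activates the kinase JAK2, which phosphorylates the transcription factor STAT5B. STAT5B induces Igf1 and Igfals, the secreted parts of the axis, and also Socs2 and Cish, which feed back on the receptor. Circulating IGF1 is carried by binding proteins, of which hepatocytes make several, and one of them, Igfbp1, is known for its repression by insulin through FOXO1. BCL6 is a repressor that competes with STAT5 at shared sites, and the pulses of GH that differ between the sexes set many sex-biased genes of the rodent liver.

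The 10 genes held 76032 of the 29037988 UMIs over tissue in the NCD liver and 163581 of 72118803 in the HFD liver. The sections differed in depth, with medians of 4187.5 UMIs over 3692 spots and 18549 UMIs over 3594 spots. RNA was also found beside the tissue, where 1300 spots held 19.1% of the UMIs of the NCD slide and 1398 spots held 2.93% of those of the HFD slide. Levels are therefore given as UMIs per 1000000 UMIs of the same spots (CPM). The labels name the tissue as liver but also give a hematopoietic stem cell line and an immune cell type. Hepatocyte markers (8 genes, Alb among them) made up 119793 and 137523 CPM in the NCD and HFD sections, whereas 5 markers of blood stem cells made up 26.7 and 36.3 CPM. Xist had 1 and 2 UMIs, and 4 genes of the Y chromosome had 1918 and 4621.

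The sequences shown are those upstream of axis genes that hold the letters TTCNNNGAA, the core that STAT5 is known to bind, or CAAAACAA, the insulin response element known from the promoter of Igfbp1. RefSeq start sites on GRCm38.p6 were available for 9 of the 10 genes, with 15 promoters in all, and both strands of the 250 bases before each start were searched. TTCNNNGAA reads the same on both strands and was found before 4 of the 15 starts, which belong to Igfals and Bcl6. It was found in 7.02% of 32851 mouse promoters of that length. The matches are in capitals, and a match is a description of letters, not of binding. No match of one motif overlapped a match of the other.

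The promoter of Bcl6 within the gene's own intron, chr16:23981284-23981533 on the minus strand, held 3 matches, which began 168, 122 and 88 bases before the start.
Bcl6, promoter 2: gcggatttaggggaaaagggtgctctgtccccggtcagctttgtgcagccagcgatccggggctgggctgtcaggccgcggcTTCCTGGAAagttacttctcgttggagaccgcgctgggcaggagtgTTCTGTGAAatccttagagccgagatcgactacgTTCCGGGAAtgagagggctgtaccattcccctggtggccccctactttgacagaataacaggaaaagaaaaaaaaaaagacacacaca
The other start of Bcl6 lies at the upstream end of the gene, with 1 match 118 bases before it. For Igfals, 29 bases around the match of each of 2 promoters are shown, chr17:24877598-24877626 and chr17:24878163-24878191 on the plus strand, both in windows that overlap annotated Igfals exons in GENCODE M21.
Igfals, promoter 1: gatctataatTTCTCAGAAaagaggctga
Igfals, promoter 2: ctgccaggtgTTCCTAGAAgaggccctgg
Cish had no match before its start but 2 at and just after it, the first beginning at base 1 and the other at base 12, in a stretch of 30 bases at chr9:107296654-107296683 on the plus strand. In all promoters, the share with a match was 8.30% when the 50 bases after the start were added.
Cish, start site: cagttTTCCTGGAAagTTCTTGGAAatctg
The Igfbp1 promoter held 1 match of CAAAACAA, which is found in 2.21% of all promoters. It began 108 bases before the RefSeq start in the 245 bases that precede the annotated gene, chr11:7197537-7197781 on the plus strand.
Igfbp1, promoter: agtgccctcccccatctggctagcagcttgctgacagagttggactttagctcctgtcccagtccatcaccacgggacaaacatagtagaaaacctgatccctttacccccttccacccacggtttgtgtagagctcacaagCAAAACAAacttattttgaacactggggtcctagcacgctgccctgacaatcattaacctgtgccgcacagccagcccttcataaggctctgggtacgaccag

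Compared with the NCD liver, the feedback regulators Socs2 and Cish, the binding protein gene Igfbp2 and the IGF complex gene Igfals were lower in the HFD liver, Igf1 was lower by a smaller factor, and Bcl6 was higher. A fold of 1.5 was used to call a gene apart between the sections. It was reached by 4 of the 10 axis genes downwards, against 4.56% of the 10665 genes with at least 200 UMIs, and by 2 genes upwards, against 23.9%. The median log2 ratio of HFD over NCD was -0.20 over the axis genes and 0.23 over all those genes. The axis genes were chosen with earlier results of these data known. Their counts set against all genes, here and further on, are therefore no independent evidence. A spot holds several cells, so fewer cells of a type and less RNA per cell cannot be told apart.

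**Figure D1:**
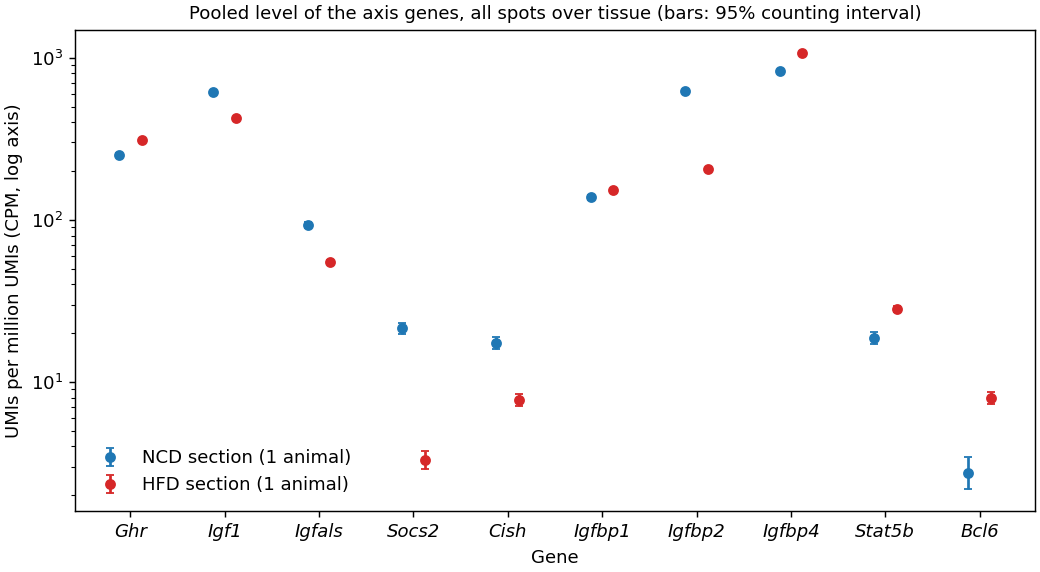
Pooled level of each axis gene in CPM (log axis) over all spots on tissue of the NCD liver (blue) and the HFD liver (red), 1 animal each, with 95% counting intervals. Igf1, Igfals, Socs2, Cish and Igfbp2 lie lower in the HFD liver, and Ghr, Igfbp1, Igfbp4, Stat5b and Bcl6 lie higher, Igfbp1 by a log2 ratio of only 0.15.

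The receptor and its transcription factor were not lower in the HFD liver. Ghr, the GH receptor gene (ENSMUSG00000055737, chr15:3317760-3583492, minus strand, GRCm38), stood at 252 CPM (246 to 258) in the NCD liver and at 309 CPM (305 to 313) in the HFD liver. The log2 ratio was 0.29 (0.26 to 0.33), close to the median of all genes, and 4804 of the 10665 genes had a higher ratio. Stat5b (ENSMUSG00000020919, chr11:100780731-100850724, minus strand) stood at 18.7 CPM (17.2 to 20.3) and 28.1 CPM (26.8 to 29.3), a 1.5-fold ratio (log2 0.59, 0.45 to 0.72). That value lies at the calling fold itself and fell below it, to a log2 ratio of 0.47, after spots were drawn down to 3000 UMIs.

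Both feedback regulators were lower in the HFD liver, and Socs2 had the lowest ratio of the 10 genes. Socs2 (ENSMUSG00000020027, chr10:95385362-95417180, minus strand) encodes a suppressor of cytokine signalling that targets the GH receptor for degradation. It had 622 UMIs in the NCD liver, or 21.4 CPM (19.8 to 23.2), and 237 UMIs in the deeper HFD liver, or 3.29 CPM (2.88 to 3.73). The HFD level was 6.52-fold lower (log2 -2.70, -2.93 to -2.49), and 27 of the 10665 genes had a lower ratio. Cish (ENSMUSG00000032578, chr9:107296026-107302784, plus strand), a related inhibitor of STAT5 signalling, stood at 17.4 CPM (15.9 to 18.9) and 7.72 CPM (7.10 to 8.39), which is 2.25-fold lower in the HFD liver (log2 -1.17, -1.34 to -0.99).

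Both genes were also found in fewer HFD than NCD spots at equal depth. After every spot was drawn down to 3000 UMIs, which kept 2107 NCD and 3538 HFD spots, a Socs2 UMI was present in 6.36% (5.36 to 7.49) of NCD spots and 1.02% (0.714 to 1.41) of HFD spots. Without drawing down, the shares were 13.9% and 6.01%. For Cish the shares were 5.03% (4.14 to 6.05) and 1.84% (1.42 to 2.34) at equal depth, whereas without drawing down they were 11.4% and 13.8%, in the order of the depths. Off-tissue RNA of the NCD slide held Socs2 at 20.4 CPM (17.1 to 24.0), which is within counting error of the level on its tissue. On the HFD slide the off-tissue level of Socs2 was 1.38 CPM (0.284 to 4.03), from 3 UMIs.

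The secreted IGF components were lower in the HFD liver by smaller factors than Socs2. Igf1 (ENSMUSG00000020053, chr10:87858265-87937042, plus strand), the hormone itself, stood at 617 CPM (608 to 626) in the NCD liver and 423 CPM (418 to 428) in the HFD liver. This is 1.46-fold lower (log2 -0.54, -0.57 to -0.52) and did not reach the calling fold, yet 544 of 10665 genes had a lower ratio. Igfals (ENSMUSG00000046070, chr17:24865997-24882010, plus strand) encodes the acid-labile subunit, which holds IGF1 and a binding protein in a long-lived serum complex. It stood at 92.8 CPM (89.4 to 96.4) and 54.8 CPM (53.1 to 56.6), 1.69-fold lower in the HFD liver (log2 -0.76, -0.83 to -0.69). At equal depth an Igf1 UMI was found in 84.0% (82.4 to 85.5) of NCD and 70.7% (69.2 to 72.2) of HFD spots, and an Igfals UMI in 24.0% (22.2 to 25.8) and 15.4% (14.3 to 16.7). Without drawing down, the deeper HFD liver had the higher share for both, at 97.7% against 74.8% for Igf1 and 61.5% against 37.8% for Igfals.

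The binding proteins did not move together. Igfbp2 (ENSMUSG00000039323, chr1:72824503-72852474, plus strand), which binds IGF1 and IGF2, stood at 628 CPM (618 to 637) in the NCD liver and 205 CPM (202 to 208) in the HFD liver, 3.06-fold lower (log2 -1.61, -1.64 to -1.58). A lower ratio was found for 77 of the 10665 genes. At equal depth its share of spots was 80.1% (78.3 to 81.8) and 44.1% (42.5 to 45.8), while without drawing down it was 74.1% and 91.8%. Igfbp4 (ENSMUSG00000017493, chr11:99041244-99054392, plus strand), an inhibitory binding protein that is cleaved by the protease PAPP-A, stood at 832 CPM (821 to 842) and 1076 CPM (1069 to 1084), giving a log2 ratio of 0.37 (0.35 to 0.39). Igfbp1 (ENSMUSG00000020429, chr11:7197782-7202546, plus strand), the short-lived binding protein under control of insulin, stood at 137 CPM (133 to 142) and 153 CPM (150 to 156), giving a log2 ratio of 0.15 (0.10 to 0.21). Its similar totals covered opposite patterns across the lobule, described further on.

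Bcl6 (ENSMUSG00000022508, chr16:23965052-23988852, minus strand) was the axis gene with the highest ratio. It had 80 UMIs in the NCD liver, or 2.76 CPM (2.18 to 3.43), and 572 in the HFD liver, or 7.93 CPM (7.29 to 8.61), a 2.88-fold higher level (log2 1.53, 1.19 to 1.88). Higher ratios were found for 373 of the 10665 genes. At equal depth a Bcl6 UMI was found in 0.759% (0.434 to 1.23) of NCD and 2.20% (1.75 to 2.74) of HFD spots, and without drawing down in 1.92% and 14.1%. In the NCD liver, 19 of the 80 UMIs came from 10 spots, so that section's level rests on few transcripts. Without the 1% of spots with the most Bcl6 UMIs in each section, the log2 ratio was 2.53. With Bcl6 in only 1.92% of NCD spots, this step took a larger share of the NCD than of the HFD counts. The rise in the ratio is therefore no sign of a larger difference. Markers of other cells also differed between the sections. Stellate cell markers were higher in the HFD liver (8 of 8 genes, log2 1.14 for their sum), as were endothelial markers (8 of 8, 0.61) and markers of lipid-associated macrophages (7 of 7, 1.94), while hepatocyte markers differed by 0.20 (6 of 8 higher) and B and T cell markers by -1.58 (0 of 7 higher). Their part in the axis genes' differences was not tested.

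The liver lobule is supplied at the portal tract and drained at the central vein, and many hepatocyte genes are graded between them. Each spot with at least 1000 UMIs and at least 10 UMIs of position markers was placed by the share of pericentral among pericentral and periportal marker UMIs (10 and 8 genes, none of the axis), and the spots of each section were cut along that score into 3 ranges of equal size, called periportal, middle and pericentral. These are ranges of a score and not anatomical zones. A range held 903 spots in the NCD liver, where 26.6% of spots were left out, and 1195 in the HFD liver, where 0.250% were. Pericentral genes not used for the score (8, such as Cyp2a5) were higher in the pericentral range in both sections, and 8 of 8 periportal ones in the NCD liver and 7 of 8 in the HFD liver were higher in the periportal range. The exception was Apoa4 (log2 0.30 in the HFD liver). Median depth was 6082, 9343 and 6900 UMIs in the periportal, middle and pericentral ranges of the NCD liver and 24333, 14492 and 17460 in those of the HFD liver.

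Igf1, Cish and Igfbp2 were graded towards the portal side in both livers, Bcl6 was graded towards the central side in the HFD liver, and Igfbp1 turned from the central to the portal side. A log2 ratio of at least 0.32 between the pericentral and periportal ranges was used to call a gene graded. In the NCD liver 3 axis genes were higher pericentrally (Ghr, Igfbp1 and Bcl6), against 22.9% of 5371 genes, and 3 periportally (Igf1, Cish and Igfbp2), against 5.6%. In the HFD liver 1 was higher pericentrally (Bcl6), against 14.6% of 9319 genes, and 5 periportally (Igf1, Socs2, Cish, Igfbp1 and Igfbp2), against 7.17%. Without mitochondrial and the 20 most abundant genes in the total, Ghr fell below the fold in the NCD liver (0.29) and Igfals passed it periportally (-0.35). These counts take in Bcl6 in the NCD liver and Socs2 in the HFD liver, which fell short of the 200 UMIs asked of the background genes, while the other 9 axis genes reached that minimum in each section.

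**Figure D2:**
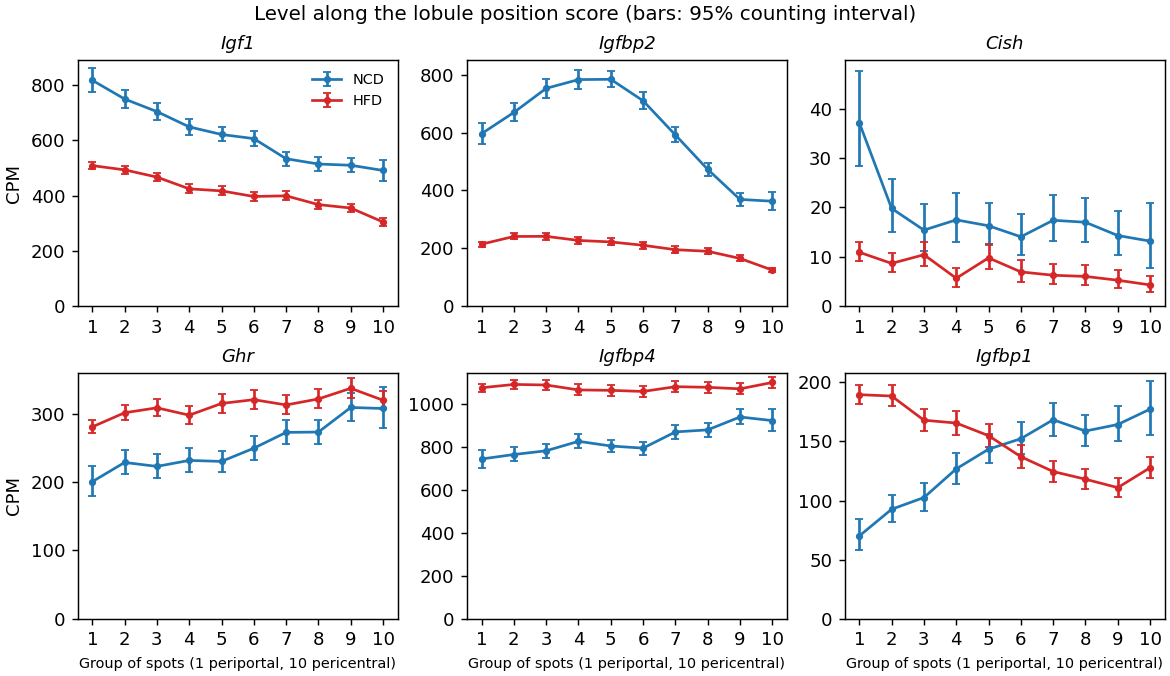
Levels in CPM of 6 axis genes over 10 equal groups of spots ordered from periportal (1) to pericentral (10), in the NCD liver (blue) and the HFD liver (red), with 95% counting intervals. Igf1 declines in both sections, Igfbp2 is highest in the middle of the NCD liver at 784 CPM, and the Igfbp1 lines cross.

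Igf1 had a similar grade in both sections at different levels. In the NCD liver it stood at 739 CPM (721 to 758) in the periportal, 605 CPM (590 to 619) in the middle and 507 CPM (492 to 522) in the pericentral range. In the HFD liver the levels were 487 CPM (479 to 495), 410 CPM (402 to 419) and 346 CPM (338 to 354), so that its highest range lay below the lowest range of the NCD liver. The log2 ratio of pericentral over periportal was -0.55 (-0.60 to -0.49) and -0.50 (-0.54 to -0.46), and the difference between the sections was 0.05 (-0.02 to 0.12), within counting error. Igfals was graded the same way but more weakly, with log2 ratios of -0.23 (-0.37 to -0.08) and -0.18 (-0.29 to -0.07). Cish was 1.43-fold higher periportally in the NCD liver (22.1 against 15.5 CPM) and 1.88-fold in the HFD liver (9.75 against 5.2 CPM). Of 10 equal groups of NCD spots, the first on the portal side held Cish at 37.1 CPM (28.5 to 47.6), and the other 9 held 13.2 to 19.8 CPM.

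The binding protein Igfbp2 had a maximum between portal and central sides in the NCD liver. Its levels were 692 CPM (675 to 711), 729 CPM (714 to 745) and 426 CPM (413 to 440) from periportal to pericentral, and over 10 equal groups of spots it went from 596 CPM at the portal end over 784 CPM (756 to 813) in the fifth to 363 CPM at the central end. In the HFD liver it declined from 231 CPM (225 to 236) over 214 CPM (208 to 221) to 161 CPM (156 to 167). The log2 ratio of the outer ranges was -0.70 (-0.76 to -0.64) in the NCD liver and -0.52 (-0.57 to -0.46) in the HFD liver. Ghr was higher pericentrally, at 220, 245 and 292 CPM from periportal to pericentral in the NCD liver and at 297, 312 and 324 CPM in the HFD liver. Its log2 ratio was 0.41 (0.32 to 0.50) in the first and 0.13 (0.08 to 0.17) in the other, a difference of -0.28 (-0.38 to -0.18). Igfbp4 had a similar pair of values, 0.22 (0.17 to 0.27) and -0.00 (-0.03 to 0.02), so a grade was measured in the NCD liver and none beyond counting error in the HFD liver.

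For the genes with the fewest UMIs the grades were loosely bounded. Bcl6 was higher pericentrally by 1.02 on the log2 scale (0.03 to 2.10) in the NCD liver, from 13 and 28 UMIs in the outer ranges, and by 0.43 (0.14 to 0.71) in the HFD liver. Stat5b had ratios of -0.13 (-0.46 to 0.20) and 0.09 (-0.06 to 0.24), and no grade was detectable at this depth. Socs2 had ratios of 0.22 (-0.08 to 0.52) and -0.43 (-0.91 to 0.03), neither beyond counting error. In spots drawn down to 3000 UMIs, the ratio was 0.00 for Bcl6 in the NCD liver and 0.49 for Socs2 in the HFD liver, which turns the direction of the latter. The NCD ratio of Bcl6 also fell below the calling fold by the mean of CPM per spot (0.28) and between the outer of 5 equal ranges (0.19).

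Igfbp1 was graded in opposite directions in the sections. In the NCD liver its level was 95.2 CPM (88.6 to 102) in the periportal, 150 CPM (143 to 158) in the middle and 162 CPM (153 to 170) in the pericentral range. In the HFD liver it was 181 CPM (177 to 186), 147 CPM (142 to 152) and 119 CPM (115 to 124). The ratio of the outer ranges was 1.70-fold in favour of the pericentral side in the NCD liver (log2 0.77, 0.64 to 0.89) and 1.52-fold in favour of the periportal side in the HFD liver (log2 -0.61, -0.67 to -0.54). At the extremes of the score, the first of 10 groups on the portal side held 70.1 CPM (58.0 to 84.0) in the NCD liver and 190 CPM (182 to 198) in the HFD liver, and the last on the central side held 177 CPM (156 to 201) and 128 CPM. The sections differed by -1.37 (-1.52 to -1.23) in this log2 ratio. Among 5356 genes with 200 UMIs over the outer ranges of each section, 6 (0.112%) were graded to the pericentral side in the NCD liver and to the periportal side in the HFD liver, and Igfbp1 was 1 of these. The others, named after their values were seen, were Saa2, Tmed3, Lum, Snhg1 and Pdlim1. In the opposite sense 9 genes turned, among them the hemoglobin genes Hbb-bs, Hbb-bt, Hba-a1 and Hba-a2 and the lipogenic Scd1. The 4 hemoglobin genes together stood at 6676 CPM in the NCD liver and 1246 CPM in the HFD liver. Their part in the turn of Igfbp1 was not tested. In spots drawn down to 3000 UMIs, the ratio of Igfbp1 was 0.88 in the NCD liver and -0.54 in the HFD liver, so the opposite directions were also measured at equal depth.

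The ranges were cut by rank within each section, so a range is not the same stretch of the score in both. The pericentral range began at a pericentral marker share of 94.5% in the NCD liver and 84.7% in the HFD liver. The periportal range ended at 72.4% and 63.4%. Compared range by range, the lower level of Socs2, Cish, Igfbp2 and Igfals was found in every range of the HFD liver. These were 4 of the 9 axis genes with at least 200 UMIs in each range, whereas 2.5% of 7595 genes were at least 1.5-fold lower in every range. Socs2 was 5.59-fold lower in the periportal, 5.91-fold in the middle and 8.81-fold in the pericentral range of the HFD liver. Cish was 2.27-fold, 2.11-fold and 2.98-fold lower, and Igfals 1.71-fold, 1.75-fold and 1.65-fold. The log2 ratios of Igfbp2 were -1.59, -1.77 and -1.40. Igf1 was close to the calling fold everywhere, at 1.52-fold, 1.47-fold and 1.47-fold lower. Igfbp1, in contrast, was 1.91-fold higher in the HFD liver periportally (log2 0.93, 0.82 to 1.04), within counting error in the middle (-0.03, -0.12 to 0.05) and lower pericentrally (-0.44, -0.53 to -0.35). Bcl6 was higher in each range, with log2 ratios of 2.16 (1.35 to 3.09), 1.18 (0.66 to 1.74) and 1.56 (0.99 to 2.19).

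**Figure D3:**
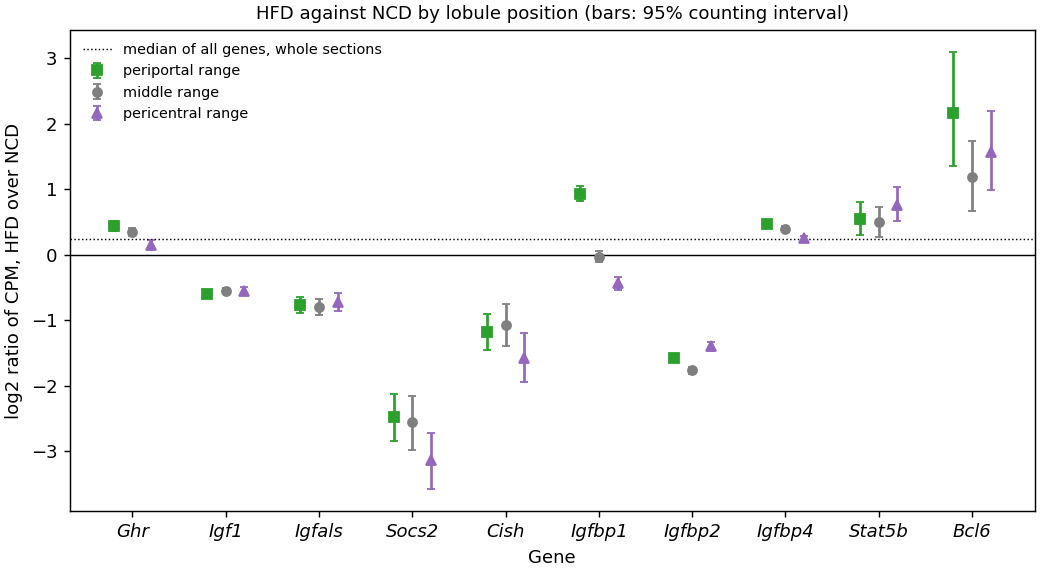
Log2 ratio of CPM, HFD over NCD, for each axis gene in the periportal (green squares), middle (grey circles) and pericentral (purple triangles) range of spots, with 95% counting intervals; the dotted line is the median of all genes (0.23). Socs2 lies lowest in every range, and Igfbp1 runs from 0.93 periportally to -0.44 pericentrally.

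The likeness of each axis gene's lobule profile to that of other genes was measured for the 6 axis genes with at least 1000 UMIs in each section. The measure was Pearson's r of log2 CPM (pseudocount 1 CPM) over 40 groups of spots, 20 from each section. Values were centred within each section, so r leaves out the difference in level between the sections. It was taken among 1512 genes with at least 2000 UMIs in each section. Groups of 1 section share their library, so r is a description. Igf1 was most like Serpina1b (r = 0.97), Hpx (0.96) and Mup3 (0.96), and Igfbp2 most like Wfdc21 (0.97), C9 (0.94) and Arg1 (0.90). Igfbp1 was most like the carboxylesterase gene Ces1c (0.95), with r of 0.96 in the NCD liver and 0.92 in the HFD liver, followed by Mug1 and Hrg. For Igfals the highest value was 0.73, with Serpinc1. Ghr was most like Apoe (0.89), with 0.91 within the NCD liver and 0.80 within the HFD liver. Igfbp4 was most like C4bp (0.90), but within the HFD liver r was 0.23.

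Igf1 is also made by macrophages, so spots rich in other transcripts were examined. In the HFD liver, the 10% of spots with the highest share of lipid-associated macrophage transcripts (359 spots) had Igf1 at 428 CPM, against 422 CPM in the other spots, a log2 ratio of 0.02 (-0.03 to 0.07). The same ratio was 0.15 (0.07 to 0.23) in the NCD liver. Socs2 was higher in the macrophage-rich spots of the HFD liver (log2 0.88, 0.40 to 1.34, from 49 UMIs), and so were Igfbp1 (0.56, 0.48 to 0.63) and Cish (0.50, 0.17 to 0.83), while Ghr (-0.26, -0.32 to -0.20) and Igfals (-0.20, -0.35 to -0.06) were lower. Smaller differences there were those of Igfbp2 (0.08, 0.01 to 0.15) and Igfbp4 (-0.08, -0.11 to -0.05). In the NCD liver, Igfbp1 was lower in such spots (-0.40, -0.61 to -0.21), Socs2 did not differ beyond counting error (0.04, -0.43 to 0.48), and Cish (0.51, 0.06 to 0.93) and Ghr (-0.33, -0.48 to -0.19) had the same direction as in the HFD liver. Igfbp2 was lower in those NCD spots (-0.10, -0.19 to -0.02), and Igfbp4 did not differ beyond counting error (-0.06, -0.13 to 0.01). The macrophage-rich spots were deeper in the HFD liver, with a median of 23835 UMIs against 18074, and shallower in the NCD liver, with 4589 against 6961. The macrophage transcripts were themselves higher periportally, by log2 -1.38 for pericentral over periportal in the HFD liver and -1.82 in the NCD liver. In the NCD liver they made up only 2390 UMIs over 3692 spots, so its richest spots rest on few counts. Whether those spots held such macrophages was not tested, nor was the part of position and depth in these differences. In the 10% of HFD spots richest in lipid droplet transcripts, Igf1 (-0.23, -0.30 to -0.17) and Igfbp2 (-0.25, -0.34 to -0.15) were lower than in the rest. These spots were shallower, with a median of 15435 UMIs against 19050, and the lipid droplet transcripts were higher pericentrally (log2 0.58), on the side where Igf1 and Igfbp2 were low. The part of position and depth in this difference was not tested. The other 8 axis genes did not differ there beyond counting error, and in the NCD liver none of the 10 did.

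The wider GH receptor pathway was not lower in the HFD liver as a group. Of its 14 genes, 13 had at least 200 UMIs, of which 5 were at least 1.5-fold higher in the HFD liver and 2 lower, the latter being Socs2 and Cish themselves. Over all 10665 genes, the shares at this fold were 23.9% higher and 4.56% lower. Socs3, an inhibitor induced mainly by other cytokines, was 2.66-fold higher, at 2.41 CPM in the NCD and 6.41 CPM in the HFD liver. Stat5a, the relative of Stat5b, was 1.92-fold higher, at 6.37 CPM in the NCD and 12.2 CPM in the HFD liver. Stat3 (log2 0.54) and the phosphatase gene Ptpn11 (0.07) were below the calling fold. The median of the list was 0.29 in log2, next to 0.23 for all genes.

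In the IGF system, 14 of 20 genes had at least 200 UMIs, 4 were higher in the HFD liver, against 23.9% of all genes, and 4 lower, against 4.56%. Besides Igfbp2 and Igfals, the lower ones were Irs1, named after its value was seen, and Irs2, which encode insulin receptor substrates. Irs2 stood at 12.6 and 5.67 CPM in the NCD and HFD sections (2.22-fold lower). The higher ones included Htra1, a protease gene (2.37-fold), and Igf1r, the IGF1 receptor gene (1.81-fold, from 37 and 166 UMIs). Igfbp7 was also among them, 1.62-fold higher, at 200 CPM in the NCD and 323 CPM in the HFD liver. Igfbp7 is a gene of sinusoidal endothelium and stellate cells, whose markers were also higher. The part of these cells in the Igfbp7 difference was not tested. Among 12 genes known to respond to insulin or FOXO1, 4 were higher and 1, Irs2, was lower, next to 23.9% and 4.56% of all genes. Foxo1, the gene of the transcription factor itself, was 1.86-fold higher in the HFD liver. Igfbp1 (1.11-fold), Pck1 (1.09-fold), Insr (1.13-fold lower) and G6pc (1.47-fold) lay within the calling fold. Igfbp1 was the single gene of these 12 that was graded in opposite directions in the sections.

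Genes whose liver expression is sex-biased under GH differed widely. Their names were drawn up with earlier rankings of these sections known, so the counts are no independent evidence. Of 18 male-biased genes, 17 had at least 200 UMIs, 14 were at least 1.5-fold lower in the HFD liver (4.56% of all genes) and 1, Mup20, was 1.74-fold higher (23.9% of all genes), with a median log2 ratio of -2.17. Hsd3b5, a steroid reductase gene, had 1783 UMIs in the NCD liver and 6 in the HFD liver (log2 -9.53, -10.98 to -8.40), and Slco1a1, an organic anion transporter gene, had 3714 and 14 (log2 -9.36). Of 19 female-biased genes, 10 had at least 200 UMIs, 8 were higher (23.9% of all genes) and none lower, with a median of 2.75. The minimum of 200 UMIs was set on the sum of both sections. Of these 10, only Fmo2, Cyp17a1 and Abcd2 reached it in the NCD liver, and the others passed through the deeper HFD liver. Some male-biased genes, such as Hsd3b5 and Slco1a1, passed through the NCD liver alone. The counts and medians of both lists therefore partly follow from this filter. Cyp2b13 had 0 UMIs in the NCD liver and 1458 in the HFD liver, at least 196-fold higher against a floor of 3 counts over the NCD liver. Cyp2a4 had 3 and 1052 UMIs, a ratio of 141 (log2 7.14, 5.59 to 9.42), although it has a near-identical relative in Cyp2a5, between which reads can be split. Abcd2 was 2.25-fold and Cyp17a1 4.48-fold higher, whereas Fmo2 (-0.37) and Tox (-0.22) had negative log2 ratios.

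**Figure D4:**
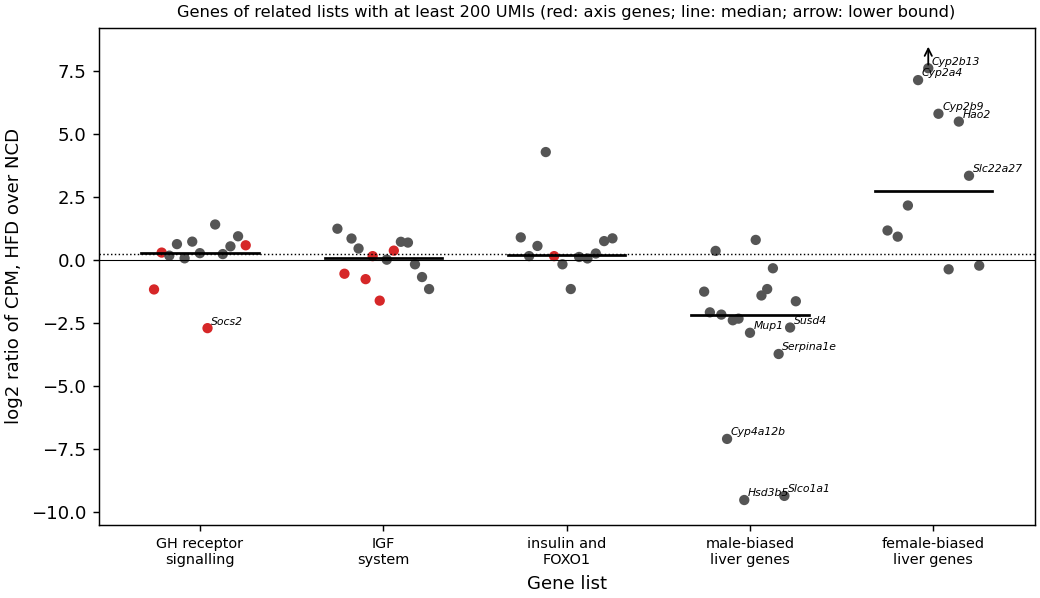
Log2 ratio of CPM, HFD over NCD, of every gene with at least 200 UMIs in 5 lists. Axis genes are red, the median of each list is a bar and the median of all genes is dotted. The arrow marks Cyp2b13, placed at its ratio to a floor of 3 counts in the NCD liver. Medians are 0.29 for GH receptor signalling, 0.08 for the IGF system, 0.21 for insulin and FOXO1, -2.17 for male-biased and 2.75 for female-biased genes.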

How the data were processed

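The authors deposited UMI counts per gene and spot for 1 NCD and 1 HFD liver section, made with Space Ranger 1.3.1 and the build mm10 per the labels, without normalization. Spot coordinates and images were not used here. UMIs were summed over spots on tissue and divided by all UMIs of the same spots. Intervals at 95% were exact Poisson for levels, exact conditional binomial for ratios, exact conditional odds ratio for differences between ratios and Clopper-Pearson for shares of spots. No test, p-value or doublet removal was applied, since each diet had 1 section. The tables of on-tissue spots and of all spots differed in 0 UMIs, and 3173 barcodes occurred in both on-tissue tables, where a barcode names a position on the slide and not a cell.

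Background genes had at least 200 UMIs over both groups compared. Drawing down used seed 1. Positions came from GENCODE M21 (GRCm38), which holds 32158 of the 32285 genes, and promoters from RefSeq. All 10 axis genes were named, and from each further list up to 5 genes with the most UMIs and the 2 highest and 2 lowest ratios. A few genes under this rule are not reported here. The axis genes and lists were chosen with earlier results of these data known. On counts simulated as Poisson draws for 10665 genes of HFD over NCD, 95.5% of intervals held the true ratio. The direction was right for 100% of 200 changed genes. Such draws hold counting error alone, so they check the computation of the intervals and not the variation between animals, sections or spots. The work was done in matplotlib 3.10.9, pandas 2.3.3, scipy 1.17.1 and numpy 2.4.6 under Python 3.11.15.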

Additional observations from a re-analysis of the deposited data

Results flagged for a closer look

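Igfbp1 differed between the sections in its grade along the lobule. The log2 ratio of the pericentral over the periportal range was 0.77 for the NCD liver and -0.61 for the HFD liver, with intervals on opposite sides of 0. Whether the diets differ in this was not tested, since each had 1 animal. With 1 sample in each group, no search for outlying samples was possible.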

How the results depend on the processing

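The number of axis genes past the fold in each comparison stayed within 1.5 times of its main value under all 24 alternatives to a count (8 for each comparison), with 5 or 6 genes between the sections and 5 or 6 between the outer ranges, but the genes and directions behind these counts changed. Between the outer ranges of the NCD section, 3 higher and 3 lower genes became 2 and 4 without mitochondrial and the 20 most abundant genes in the total, as Ghr fell to 0.29 and Igfals reached -0.35. Bcl6 lost its call there by the mean of CPM per spot (0.28), between the outer of 5 ranges (0.19) and when drawn down, where Socs2 gained one (0.36). In the HFD section, 1 higher and 5 lower genes became 2 and 4 when drawn down, and Socs2 lost its call with z-scored position markers (-0.24). Stat5b, at 1.5-fold, fell below the fold under 5 of them, down to a log2 ratio of 0.47 when spots were drawn down to 3000 UMIs. The log2 ratio of HFD over NCD kept its sign for all 10 genes under all 8 alternatives. Subtracting the off-tissue profile, which removed 42.9% of the NCD and 5.86% of the HFD UMIs, gave -0.62 for Igfals, -1.11 for Cish and -1.52 for Igfbp2. Leaving out the 1% of spots with most UMIs of the gene raised Bcl6 to 2.53, and it took a larger share of the few NCD counts. Igfbp1 had pericentral over periportal ratios of 0.60 to 1.00 in the NCD section and of -0.66 to -0.51 in the HFD section under these alternatives. The ratio of Socs2 in the HFD section reversed from -0.43 to 0.49 in spots drawn down to 3000 UMIs, and that of Bcl6 in the NCD section went from 1.02 to 0.00, and the cause was not tested. No paired analysis was possible because each diet has 1 section, and for the same reason no replicate could be left out. The HFD section was the deeper one, so Bcl6 and Stat5b are limited by their NCD counts in the comparison of sections, and Socs2 by its HFD count.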
